A study of Mus musculus with 4 samples.

Results

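Among Treg cells sorted from mouse liver and spleen, 1929 of 24546 deposited cell barcodes carried Foxp3 together with many transcripts of Gzmb, which encodes the serine protease granzyme B, or of the chemokine Ccl5. A barcode was taken as a member when it had 500 or more genes, 10% or less mitochondrial UMIs (unique molecular identifiers, the unit in which transcripts were counted), at least 1 Foxp3 UMI and 5 or more UMIs summed over Gzmb and Ccl5. It also had to hold fewer than 2 UMIs summed over Ccl3, Ccl4 and Il10 and fewer than 8 over 9 mitosis genes, so cells led by those chemokines or in division stayed out. The 10578 cells that passed every other part of the rule but held 0 to 4 UMIs of the pair are called the other Foxp3 cells below, and together with the members they are the candidate cells. Gzmb, Ccl5 and the rest of the rule's 15 genes chose the members, so their levels are given as a description and were not tested.

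Single-cell RNA was sequenced with a 10x Genomics 5′ kit in CD4+ Foxp3GFP+ cells that were enriched on CD4 (L3T4) beads and sorted for GFP. There were 4 libraries, 1 each from the liver and the spleen at 12 days (labelled neonatal) and at 7 weeks (labelled aged, called 7-week here). All mice were C57BL/6 with GFP tied to Foxp3. The 12-day mice were Foxp3GFP-Cre Rosa26 loxP-Stop-loxP-YFP mice, in which the Cre is expressed with Foxp3, and for the 7-week mice the labels give Foxp3GFP alone. The number of mice behind a library is not in the labels, so with 1 library per group a difference between libraries has no replicate check and no p-value.

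Treg cells restrain other lymphocytes, and a part of them takes on an effector program after activation. In cytotoxic lymphocytes granzyme B is stored in granules and enters target cells with the help of perforin, and effector Treg cells can also express it. Ccl5 is a secreted chemokine that attracts T cells and other leukocytes. Klrg1, an inhibitory receptor for cadherins, marks late effector T cells, Cxcr6 is the receptor for the membrane-bound chemokine Cxcl16 and is common on liver lymphocytes, and Nkg7 is a granule membrane protein of cytotoxic cells.

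The members numbered 1376 in neonatal liver and 381 in neonatal spleen, with 85 and 87 in liver and spleen at 7 weeks. Their summed UMIs were 8238923, 2412669, 385390 and 388384 in that order, so every value from the 7-week members rests on few cells. Members were deeper than the other Foxp3 cells of their library: the median was 5184.5 against 4148.5 UMIs per cell in neonatal liver and 5579 against 4720 in neonatal spleen. At 7 weeks it was 4136 against 2829.5 in liver and 3669 against 3103 in spleen. Between 23 and 91 barcodes were shared by any pair of libraries, and 2 member barcodes were shared, both between the neonatal libraries.

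T cell and Treg markers were checked first. Values given in fours follow 1 order from here on: neonatal liver, then neonatal spleen, 7-week liver, 7-week spleen. A Cd3e UMI was found in 99.3%, 100%, 95.3% and 97.7% of members. Foxp3, which the rule required in both classes, stood at 601, 564, 654 and 592 CPM (UMIs of a gene per 1000000 UMIs) in members and at 593, 562, 708 and 637 CPM in the other Foxp3 cells. Of the 3 markers that the rule did not use, a Klrg1 UMI was found in 74.3% of members in neonatal liver [95% Clopper-Pearson interval 71.9 to 76.6], and 68.2% in neonatal spleen [63.3 to 72.9]. At 7 weeks it was found in 38.8% in liver [28.4 to 50.01] and 32.2% in spleen [22.6 to 43.1]. The same shares of the other Foxp3 cells were 34.4%, 13.4%, 11.6% and 7.12%. Thinned to 2000 UMIs per cell, with shallower cells left out, the members' shares were 60.3%, 54.4%, 32.0% and 29.3%. A Cxcr6 UMI was found in 41.0%, 27.8%, 15.3% and 9.20% of members against 11.7%, 2.80%, 2.80% and 0.978% of the others. A Nkg7 UMI was found in 69.5%, 53.8%, 31.8% and 41.4% of members against 19.2%, 13.1%, 4.92% and 6.44% of the others. Each of these 3 markers was thus absent from the counts of most 7-week members. Gzmb itself was absent from 50.6% of members in 7-week liver and 67.8% in 7-week spleen, so for most cells there the label rests on Ccl5 and Foxp3.

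Markers of other lineages were checked in the same cells. Of 12 natural killer (NK) or type 1 innate lymphoid cell markers, Ncr1, Klrb1c, Klra4, Klra7, Klra8 and Klri2 were at 0 UMIs in the members of every library, and all 12 were at 0 in 7-week liver. The 12 summed to 14.9, 24.0, 0 and 59.2 CPM in members and to 6.73, 11.6, 1.44 and 7.03 CPM in the other Foxp3 cells. Outside 7-week liver the sums were thus higher in members. Cd8a was at 0 in both liver libraries and found in 1 member cell of each spleen library. The 9 macrophage markers summed to 111 CPM in neonatal spleen members against 17.7 in the other cells there, with 137 Lyz2 UMIs in 5 cells, and to between 0 and 20.1 CPM in the members of the other libraries. Fcer1g and Tyrobp (NK list) and Lyz2, C1qa and Cd68 (macrophage list) were among the genes called higher in members below. The 8 dendritic cell markers summed to 734 CPM in 7-week spleen members against 136 in the other cells there, of which Cd74, a class II chaperone, gave 204 UMIs, 133 of them in 1 cell. In the other libraries they summed to between 101 and 168 CPM in members and between 89.8 and 142 in the others. The transcript of Ighm, an immunoglobulin gene, stood at 626, 654, 594 and 621 CPM in members, against 610, 366, 510 and 374 in the other cells, and was found in 1202 of the 1376 neonatal liver members. No doublet caller was run. The few barcodes that lacked T cell RNA (16, 12, 0 and 2) were too few to set a background for Gzmb and Ccl5: 1 of them held a Gzmb UMI and 2 a Ccl5 UMI.

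Members made up 41.1% of the candidate cells in neonatal liver [39.4 to 42.8], and 9.56% in neonatal spleen [8.66 to 10.5]. At 7 weeks they made up 6.04% in liver [4.85 to 7.42] and 2.31% in spleen [1.85 to 2.84]. The intervals cover counting error only. Thinning to 2000 UMIs left out the 320, 315, 351 and 547 candidate cells with fewer. With the same 5-UMI limit, the shares of the remaining cells were 30.8%, 5.26%, 4.07% and 1.30%, in the same order. A limit of 1 UMI of the pair per 1000 UMIs of the cell gave 42.6%, 9.23%, 7.53% and 2.92%. Neonatal liver was the highest and 7-week spleen the lowest under each of these settings, as the plot of shares by library shows. The caps on Ccl3, Ccl4, Il10 and mitosis genes removed a further 434, 66, 11 and 5 Foxp3 cells with 5 or more UMIs of the pair, and 279, 88, 64 and 39 cells with 5 or more held no Foxp3 UMI.

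**Figure D1:**
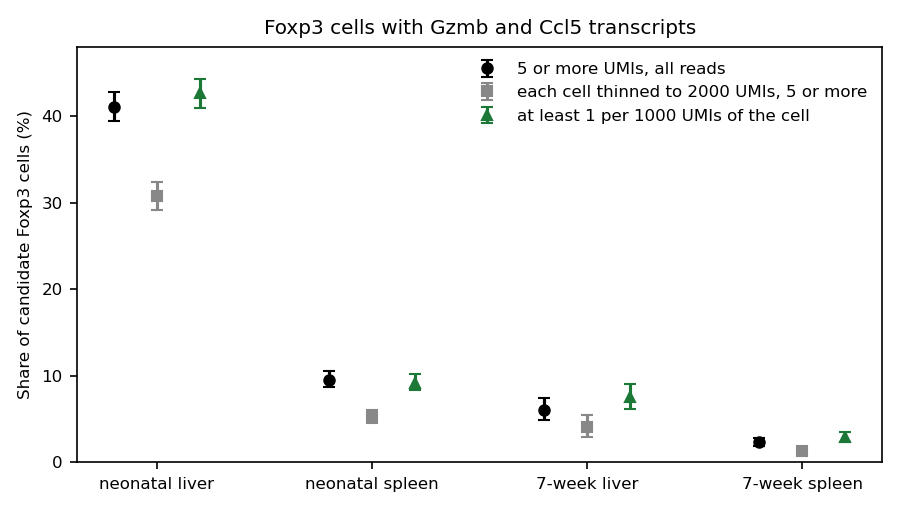
Share of candidate Foxp3 cells (y axis, %) that were members in each library (x axis), as counted, after thinning each cell to 2000 UMIs, and with a limit relative to the cell's UMIs. Cells with fewer than 2000 UMIs are left out of the thinned shares. Bars are 95% Clopper-Pearson intervals; neonatal liver stood at 41.1%, 30.8% and 42.6%, and no other library passed 9.56%.

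On either side of the 5-UMI limit, Klrg1 and Nkg7 were close in neonatal liver and Cxcr6 was not. In neonatal spleen Nkg7 and Cxcr6 were further apart. In neonatal liver 93 cells held 4 UMIs of the pair and 76 held 5. Klrg1 stood at 621 CPM in the former and 680 in the latter, and Nkg7 at 459 and 517. Cxcr6 was lower in the latter, at 137 and 82.7 CPM. It stood at 74.4 CPM in the cells with 3 UMIs and 69.0 in those with 6, so it also varied away from the limit. In neonatal spleen 57 cells held 4 and 33 held 5, with Klrg1 at 673 and 520.0 CPM, Nkg7 at 137 and 260.0 and Cxcr6 at 45.5 and 128. The 7-week libraries had 13 and 17 such cells in liver and 14 and 15 in spleen. The members are cells above a limit on 1 sum, and not a type.

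Gzmb and Ccl5 were not carried evenly. Gzmb stood at 1639.7 CPM in neonatal liver members, 1298 in neonatal spleen and 529 and 487 in liver and spleen at 7 weeks, and Ccl5 at 3329.6, 2075, 2561 and 3239. Members with 80% or more of the pair's UMIs from Gzmb (Gzmb-led) were 21.3% in neonatal liver [19.2 to 23.6], 27.6% in neonatal spleen [23.1 to 32.3], and 16.5% [9.31 to 26.1] and 12.6% [6.48 to 21.5] in liver and spleen at 7 weeks. Members with 20% or less (Ccl5-led) were 44.2%, 46.5%, 64.7% [53.6 to 74.8] and 77.0% [66.8 to 85.4]. No Gzmb UMI was found in 20.6%, 28.1%, 50.6% and 67.8% of members, and no Ccl5 UMI in 11.9%, 19.7%, 15.3% and 9.20%. Among members, Gzmb was therefore lower at 7 weeks than at 12 days in both tissues, whereas Ccl5 had no such order. The rule chose members on the sum of the pair, so these levels are a description only. In the other Foxp3 cells both genes were higher at 12 days. The neonatal to 7-week ratios there were 1.90 in liver and 1.33 in spleen for Ccl5, and 2.11 and 1.81 for Gzmb. Those cells were held below the rule's limit on the same sum, so these ratios are a description only as well. Median depth per cell was also lower at 7 weeks. Its part in these ratios and in the shares of cells with no UMI was not tested.

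**Figure D2:**
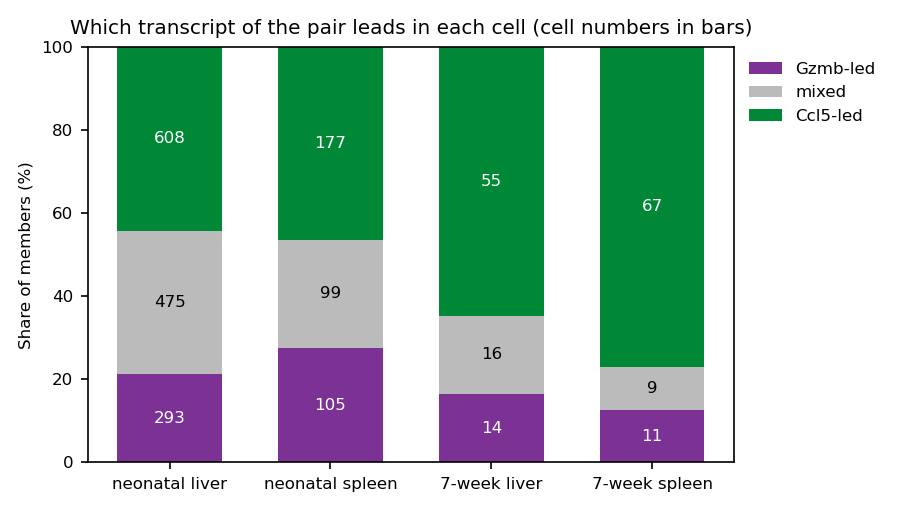
Share of members (y axis, %) that were Gzmb-led, mixed or Ccl5-led in each library (x axis), with cell numbers in the bars. The Ccl5-led share was 44.2% and 46.5% in the neonatal libraries and 64.7% and 77.0% in the 7-week libraries.

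Across all candidate cells, Gzmb was found more often where Ccl5 was found. In neonatal liver 71.8% of 1006 cells with 5 or more Ccl5 UMIs held a Gzmb UMI [68.9 to 74.5], against 21.6% of 1738 cells with none [19.7 to 23.6]. The pairs of shares were 57.5% and 5.97% in neonatal spleen, and at 7 weeks 32.8% and 5.84% in liver and 16.9% and 1.78% in spleen. Cells with 5 or more Ccl5 UMIs were also deeper, with a median of 5013 against 4304.5 UMIs in neonatal liver. The rule chose on the sum of the pair, so this is given over all candidates, which it did not select by either gene.

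To ask what else set the members apart, UMIs were summed over members and over the other Foxp3 cells of each library, and the sums were compared with edgeR's quasi-likelihood test with library as a block. The 4 libraries served as replicates although they differ in age and tissue, so the test finds differences shared by them. Of 10487 genes tested, 855 (8.15%) were higher and 762 (7.27%) lower in members at a Benjamini-Hochberg adjusted p below 0.05. The median log2 fold change of all genes was -0.02. Within the members' interquartile range of UMIs per cell, 552 and 506 genes were called. That setting left 689, 191, 43 and 43 members, so depth and the number of cells changed together in it. Without neonatal spleen 384 and 350 genes were called. Leaving out the cells with UMIs of other-lineage markers, with Ighm, Cd79b and Cd74 not counted (a setting chosen after the data were seen), gave 813 and 758. Of the named genes 125 kept their direction and call in it, and 2, Pdcd1 and Tox, lost their call.

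Of 16 cytotoxic granule genes tested, 10 were higher and 1, Lamp1 (a lysosome membrane protein), was lower, with a median log2 fold change of 0.62. Nkg7 (ENSMUSG00000004612; GRCm38 chromosome 7, 43437073 to 43438249) stood at 748, 495, 202 and 368 CPM in members and at 155, 66.0, 27.8 and 48.9 CPM in the other cells. All 4 member values lay above all 4 others, and the log2 fold change was 2.68 (SE 0.11, edgeR adjusted p = 1.9e-10). Prf1, which encodes the pore-forming protein perforin, was low at 17.4, 12.0, 5.19 and 10.3 CPM in members against 3.2, 2.28, 2.63 and 2.62, a log2 fold change of 2.25 (SE 0.28, edgeR adjusted p = 3.0e-05). Fasl, the death ligand, rose by 1.31 on the log2 scale (SE 0.23), with member values between 7.78 and 16.6 CPM. Gzmk and Gzma, a pair of related granzymes, were called higher at 4.78 (SE 0.51) and 2.85 (SE 0.49) but from few cells. Gzmk UMIs were in 22, 2, 6 and 3 members, and Gzma UMIs in 20, 2, 6 and 1. In the 7-week libraries Prf1 was in 2 and 4 member cells, so its values there rest on very few transcripts.

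Promoter sequences are shown for 3 genes whose transcripts stood together in these cells, Gzmb from the rule and Nkg7 and Cxcr6 from the test. Each is taken from the 250 bases before the RefSeq transcription start on GRCm38.p6, stopped before the first base of the GENCODE M21 gene model, 5′ to 3′ on the gene's strand. Capitals mark matches on either strand to a T-box core (TCACAC, the family of Tbx21), a RUNX core (TGTGGT, the family of Runx3) or an AP-1 site (TGANTCA). The table of promoters used here had no entry for Ccl5 and Klrg1.
Gzmb, chr14:56262335-56262584, minus strand: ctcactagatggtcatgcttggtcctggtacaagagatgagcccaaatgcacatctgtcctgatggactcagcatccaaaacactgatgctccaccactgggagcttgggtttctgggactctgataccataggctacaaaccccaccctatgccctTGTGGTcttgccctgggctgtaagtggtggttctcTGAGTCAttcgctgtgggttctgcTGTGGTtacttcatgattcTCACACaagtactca
Nkg7, chr7:43436888-43437072, plus strand: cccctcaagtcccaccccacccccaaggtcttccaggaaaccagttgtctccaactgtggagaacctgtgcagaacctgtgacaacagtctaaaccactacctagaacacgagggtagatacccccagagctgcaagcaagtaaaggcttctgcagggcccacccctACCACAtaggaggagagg
Cxcr6, chr9:123806227-123806474, plus strand: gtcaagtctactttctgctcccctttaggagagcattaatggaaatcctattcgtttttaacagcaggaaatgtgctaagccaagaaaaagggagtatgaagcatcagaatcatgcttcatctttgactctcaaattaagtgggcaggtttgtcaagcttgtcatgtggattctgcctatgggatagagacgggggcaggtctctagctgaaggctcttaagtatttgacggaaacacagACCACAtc

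The Gzmb window held the RUNX letters at 93 and 34 bases before the RefSeq start, the AP-1 letters at 58 and the T-box letters at 15. Nkg7 held the RUNX letters at 83 bases before that start. Its T-box letters, as GTGTGA, were at 12, past the end of the printed stretch and inside the GENCODE gene model. Cxcr6 held 1 RUNX match, at 10 bases. Over all 32851 RefSeq promoter windows of 250 bases, 12.3% held the T-box letters, 14.05% the RUNX letters, 6.75% the AP-1 letters and 0.170% all 3. These are letter matches only and do not show binding.

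Surface and secreted effector genes of Treg cells moved in the same direction for the most part. Of 26 genes of the effector Treg list, 20 were higher and 1, Nt5e (the ecto-enzyme CD73), was lower, with a median of 0.79. Klrg1 (chromosome 6, 122270596 to 122282882) stood at 862, 904, 353 and 335 CPM in members and 383, 148, 118 and 61.5 in the others, a log2 fold change of 1.92 (SE 0.18, edgeR adjusted p = 2.1e-06). Members were higher within each library, but the other cells of neonatal liver at 383 CPM exceeded the members of both 7-week libraries. Fgl2, a secreted suppressive molecule of Treg cells, stood at 198, 168, 259 and 113 against 66.4, 20.1, 48.6 and 17.4 CPM (2.34, SE 0.18), with no overlap. Entpd1, the ecto-enzyme CD39 that breaks down extracellular ATP, rose by 1.75 on the log2 scale (SE 0.17) and the inhibitory receptor Tigit by 1.22 (SE 0.14). Icos, a costimulatory receptor, rose by 0.83 (SE 0.13), Ctla4 by 0.42 (SE 0.09) and the calcium-binding proteins S100a4 and S100a6 by 1.43 (SE 0.20) and 1.31 (SE 0.16). Lag3, another inhibitory receptor, was called higher at 0.99 (SE 0.17) but did not move alike everywhere: 147, 86.2, 18.2 and 144 CPM in members against 57.2, 42.5, 37.8 and 80.1, so 7-week liver went the other way, and DESeq2 did not call it.

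Among transcription factors the members differed in some and not in others. Of 22 lineage regulators tested, 10 were higher, 1 was lower and 11 were not called, among them Hopx, Bhlhe40, Irf4, Rora, Gata3 and Stat4. Tbx21, which encodes T-bet and directs type 1 responses, stood at 51.9, 47.7, 44.1 and 25.7 CPM in members against 14.3, 4.77, 13.9 and 6.64 in the others (2.31, SE 0.23, edgeR adjusted p = 3.2e-06). Id2, an inhibitor of E protein transcription factors, stood at 249, 171, 192 and 142 against 75.7, 30.4, 69.9 and 34.1 CPM (1.95, SE 0.13). Member and other values did not overlap for either gene. Prdm1, which encodes Blimp-1, rose by 1.51 (SE 0.26), Maf by 1.09 (SE 0.13), Runx3 by 0.98 (SE 0.13) and Runx2 by 1.31 (SE 0.22). Zeb2, a partner of T-bet in effector CD8 T cells, was called higher at 2.16 (SE 0.43) from at most 6.68 CPM, was at 0 in 7-week spleen members, and lost its call without neonatal spleen. Bcl6, the factor of follicular T cells, was called lower at -2.44 (SE 0.59) from member values of 0.243, 0.829, 0 and 2.57 CPM, and DESeq2 did not call it.

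**Figure D3:**
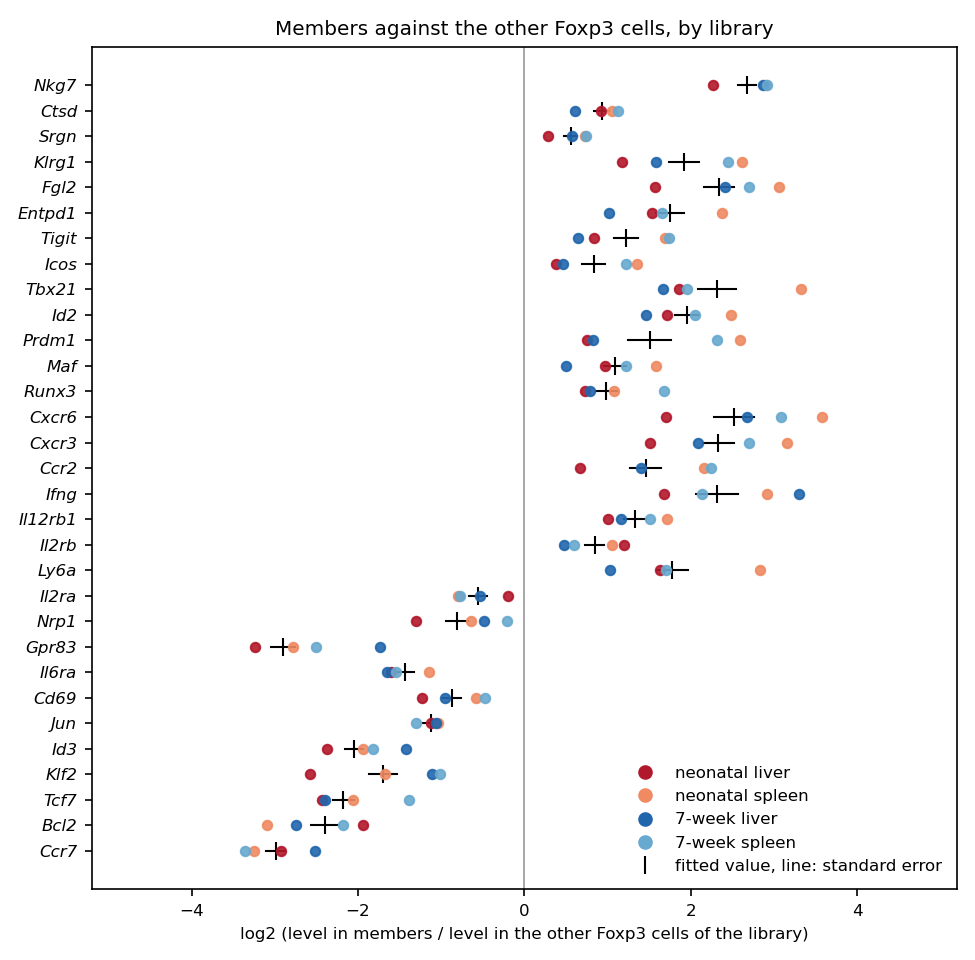
Log2 ratio of the level in members to the level in the other Foxp3 cells of the same library (x axis) for 31 genes (y axis); points are the 4 libraries, ticks and lines the edgeR estimate with its standard error. The granule, effector and type 1 genes shown lay right of 0 and resting genes left of 0 in all 4 libraries, with Ccr7 lowest at -2.99.

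Receptors that guide migration split into those raised and those reduced. Of 24 homing receptors tested, 8 were higher and 5 lower, against 8.15% and 7.27% of all genes tested. Cxcr6 stood at 207, 99.5, 85.6 and 36.0 CPM against 63.7, 8.35, 13.4 and 4.25 (2.52, SE 0.24, edgeR adjusted p = 2.2e-06). Members were higher in each library, yet 7-week spleen members at 36.0 CPM lay below the other Foxp3 cells of neonatal liver at 63.7. In the 7-week libraries its UMIs came from 13 and 8 member cells. Cxcr3, the receptor for interferon-induced chemokines, was even across libraries at 438, 519, 464 and 445 CPM in members and 154, 58.1, 109 and 68.4 in the others (2.33, SE 0.19). Ccr2, a receptor for monocyte chemoattractants, rose by 1.46 (SE 0.19), and Itga1, a collagen-binding integrin chain of tissue-resident cells, by 3.27 (SE 0.46) from member values of 5.15 to 14.6 CPM. The follicle receptor Cxcr5 fell by 1.65 (SE 0.27), the gut receptors Gpr15 and Ccr6 by 1.65 (SE 0.29) and 1.53 (SE 0.27), and the oxysterol receptor Gpr183 by 1.11 (SE 0.13).

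Cytokine genes and their receptors moved both ways. Of 13 cytokines and mediators tested, 3 were higher and 4 lower, and of 20 cytokine receptors 5 were higher and 5 lower. Over all genes tested 8.15% were higher and 7.27% lower. Ifng, the type 1 cytokine interferon gamma, stood at 30.1, 14.5, 51.9 and 18.0 CPM in members against 9.38, 1.92, 5.27 and 4.09 in the others (2.31, SE 0.26, edgeR adjusted p = 9.9e-06). Its UMIs were in 181, 26, 13 and 3 members. Csf1, the macrophage growth factor, rose by 1.28 (SE 0.18), while the tumour necrosis factor family genes Tnf, Lta and Tnfsf11 fell by 0.83 (SE 0.14), 1.43 (SE 0.26) and 1.27 (SE 0.17). Lta was not lower in 7-week liver, where members stood at 38.9 CPM and the others at 32.6. Among receptors Il12rb1, Il10ra and Il2rb rose by 1.33 (SE 0.14), 1.22 (SE 0.11) and 0.84 (SE 0.11). The chains of the interferon gamma receptor went apart: Ifngr1 rose by 1.03 (SE 0.14) and Ifngr2 fell by 1.31 (SE 0.17). Il6ra, the interleukin 6 receptor, fell by 1.44 (SE 0.11), from between 120 and 163 CPM in the other cells to between 40.3 and 60.9 in members.

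All 19 genes of the resting and recirculating list were called lower, with a median of -1.70. The call is shared over the libraries and not met alike in each: Ms4a4b, 1 of the 19, was lower by 1.74 and 1.24 on the log2 scale in neonatal liver and spleen members, while at 7 weeks its log2 ratios were -0.0035 and -0.060. Ccr7, the receptor for entry into lymph nodes, stood at 38.0, 23.2, 46.7 and 18.0 CPM in members against 288, 220.4, 267 and 185 in the others, and fell by 2.99 on the log2 scale (SE 0.11, edgeR adjusted p = 1.6e-10). Bcl2, the survival factor, stood at 17.0, 18.7, 15.6 and 36.0 CPM against 65.3, 159, 104 and 164 (-2.40, SE 0.16). For both genes every member value lay below every other value. Tcf7, a factor of naive and memory T cells, fell by 2.18 (SE 0.13), Klf2, which drives recirculation, by 1.70 (SE 0.17) and Id3, the counterpart of Id2, by 2.05 (SE 0.11). Recent thymic output genes went with them: 4 of 7 tested were lower, among them Itm2a at -1.23 (SE 0.12).

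Genes of Treg identity were divided, with 7 of 16 higher and 7 lower, against 8.15% and 7.27% of all genes tested. Il2ra, the high-affinity chain of the interleukin 2 receptor, stood at 132, 124, 161 and 159.6 CPM in members against 151, 217, 234 and 273 in the others (-0.56, SE 0.11, edgeR adjusted p = 0.0018), and it lost its call when cells were matched on depth. Gpr83, a Treg surface receptor, fell by 2.90 (SE 0.15), and Nrp1, a marker of thymus-derived Treg cells, by 0.81 (SE 0.13). Ikzf2, which encodes Helios, was higher by 0.29 (SE 0.08, edgeR adjusted p = 0.026), a call lost in several alternatives, among them leaving out either spleen library and requiring 2 or more Foxp3 UMIs. The members therefore had more RNA of some Treg genes and less of others. The rule required a Foxp3 UMI in both classes, so the similar Foxp3 level is a description and no result.

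The remaining lists can be given by their counts, to be read against 8.15% of all genes tested higher and 7.27% lower. All 9 genes of MHC class I presentation were higher (median 0.46), H2-K1 by 0.46 (SE 0.08), and 4 of 9 passed without neonatal spleen. Of 24 interferon response genes 13 were higher and 1, Usp18, was lower, with Ly6a at 1156, 873, 1723 and 1591 CPM in members against 372, 122, 846 and 489 in the others (1.78, SE 0.19). Of 20 genes of the T cell receptor response 2 were higher and 7 lower, and of 14 immediate early and stress genes 0 were higher and 6 lower, with Cd69 at -0.87 (SE 0.11) and Jun at -1.13 (SE 0.09). Of 16 glycolysis genes 8 were higher and none lower by this test, but 1 was higher with the limit set relative to depth. Of 18 actin and motility genes 11 were higher and 2 lower, against 5 and 2 with cells matched on depth. Of 17 survival and apoptosis genes 6 were higher and 2 lower, and of 3 fetal genes 1, Plagl1, was lower. Of 21 DNA synthesis genes 13 were higher by the main test, 0 when cells were matched on depth, and 1 without the cells above the 95th percentile of UMIs.

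Of genes outside these lists with 50 CPM or more and 1 direction in all libraries, Hip1, Asb2 and Serpina3g had the largest rises. Hip1, an endocytic adaptor, stood at 64.0, 47.3, 46.7 and 51.5 CPM in members against 11.4, 4.25, 9.82 and 4.71 (2.90, SE 0.19, edgeR adjusted p = 4.8e-08). Asb2, a subunit of a ubiquitin ligase that acts on filamins, stood at 97.5, 77.5, 46.7 and 131 against 17.9, 7.94, 11.7 and 21.5 CPM (2.69, SE 0.16). Neither gene had overlapping values. Serpina3g, an inhibitor of cathepsins, stood at 77.4, 60.5, 451 and 281 against 13.1, 7.57, 109.9 and 42.2 CPM (2.52, SE 0.13), with the higher level at 7 weeks in both classes. Among the lowest of all genes named were Capn3, a calpain protease, at -2.94 (SE 0.18), Nsg2 at -2.83 (SE 0.13), Igfbp4, an insulin-like growth factor binding protein, at -2.81 (SE 0.22), and Pdlim1, a cytoskeletal adaptor, at -2.77 (SE 0.12).

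Several genes also differed within the other cells and within the members by how many UMIs of the pair a cell held. In neonatal liver Nkg7 stood at 82.9 CPM in candidate cells with no UMI of the pair, 275 with 1 to 2, 422 with 3 to 4, 439.6 with 5 to 9 and 1081 with 40 or more. Cxcr6 ran over the same classes from 34.5 to 142, 107, 123 and 279 CPM. Ccr7 ran the other way, from 369 to 135, 34.05, 52.6 and 29.1 CPM. In that library most of the change thus lay below 5 UMIs for Ccr7, and on both sides of it for Nkg7. In neonatal spleen Nkg7 stood at 52.0, 167, 110, 363 and 763 CPM over these classes, with a step between 3 to 4 and 5 to 9 UMIs. Bcl2 stood there at 170.1, 109, 54.1, 22.1 and 8.002 CPM. Classes from 10 UMIs on held under 20 cells in 7-week liver, and those from 20 on in 7-week spleen, so no order is read from them. Median depth was 4188 UMIs in the cells of neonatal liver with no UMI of the pair and 5541.5 in those with 40 or more, and its part in the gradient was not tested.

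**Figure D4:**
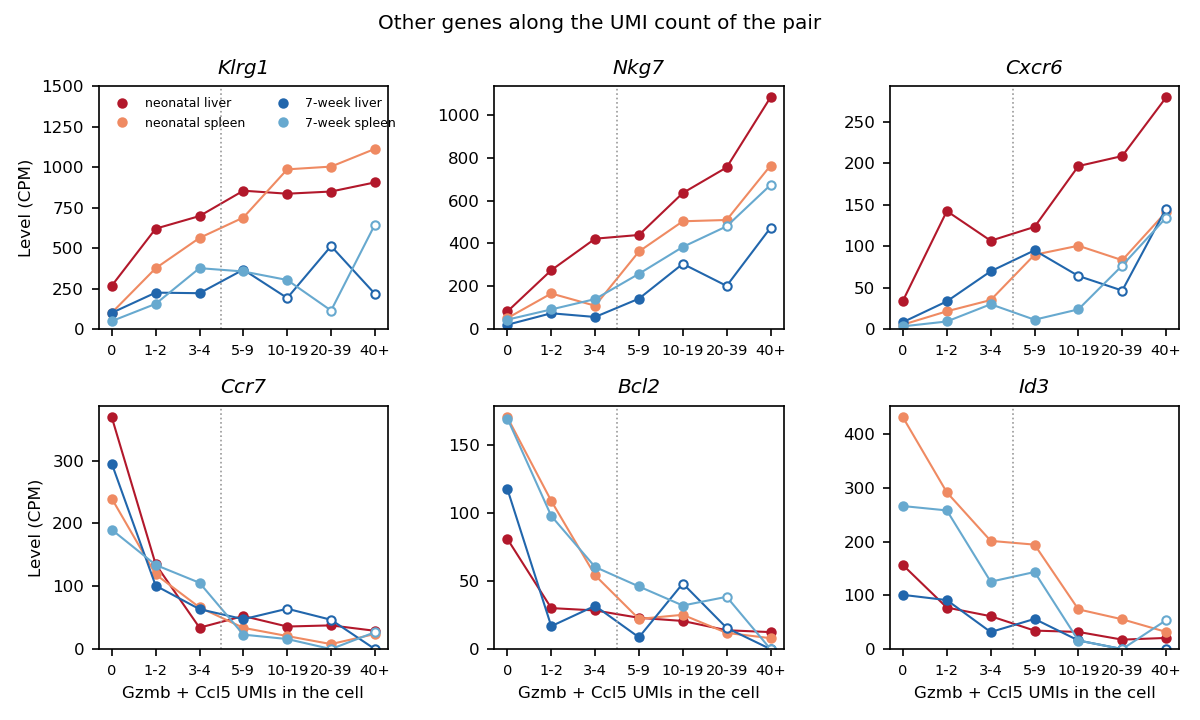
Level (CPM, y axes) of 6 genes in candidate cells grouped by their UMIs of Gzmb and Ccl5 (x axes), by library; open points hold under 20 cells and the dotted line is the 5-UMI limit. In neonatal liver Nkg7 ran from 82.9 to 1081 CPM and Ccr7 from 369 to 29.1 CPM.

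Members differed among themselves by which transcript led. Gzmb-led and Ccl5-led members were compared in the neonatal libraries only, since the 7-week libraries held 14 and 11 Gzmb-led cells, under the minimum of 20. The 2 libraries leave 1 residual degree of freedom, and leading classes are cuts of a ratio and not cell types. Gzmb-led cells were deeper, with a median of 5703 against 4824 UMIs in neonatal liver and 6630 against 5477 in neonatal spleen. Of 8381 genes tested, 130 (1.55%) were higher and 97 (1.16%) lower in Gzmb-led members by edgeR, together 2.71%. DESeq2 called 20 and 9 of the 1069 genes to which it gave an adjusted p. The median log2 fold change of all genes was -0.01.

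Gzmb-led members carried more of several effector genes and of single migration receptors. Of 25 effector Treg genes 10 were higher and 1 lower. Of 19 homing receptors 2 were higher, 1 was lower and 16 were not called, with a median log2 fold change of -0.03. Klrg1 stood at 1044 and 1369 CPM in the Gzmb-led cells of neonatal liver and spleen and at 663 and 527 in the Ccl5-led cells (0.97, SE 0.12, edgeR adjusted p = 1.7e-05). Ccr2 stood at 202 and 188 against 98.3 and 34.8 CPM (1.39, SE 0.17), and Ltb4r1, the leukotriene B4 receptor, at 191 and 134 against 72.5 and 34.8 (1.52, SE 0.14). Mt1, a metallothionein, differed by 1.52 (SE 0.15), Lgmn, the protease legumain, by 1.40 (SE 0.22) and the lamin gene Lmna by 1.24 (SE 0.17). Vim and Lgals1 were higher by 0.94 (SE 0.09) and 0.93 (SE 0.10), and Cxcr6 by 0.83 (SE 0.13). All of these were higher in both libraries.

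Ccl5-led members carried more of a smaller set. Serpina3g stood at 111 and 79.9 CPM in Ccl5-led cells of neonatal liver and spleen against 17.7 and 9.18 in Gzmb-led cells (-2.74, SE 0.19, edgeR adjusted p = 7.1e-09). Ctsw, the granule protease cathepsin W, stood at 94.5 and 78.0 against 20.6 and 14.4 CPM (-2.25, SE 0.19) and was the 1 of 14 granule genes called. Nkg7 was not called: it stood at 593 and 395 CPM in Gzmb-led and 739.8 and 446 in Ccl5-led cells (-0.27, SE 0.09, edgeR adjusted p = 0.14). Nrp1 was lower in Gzmb-led cells by 0.95 (SE 0.18), the lymphotoxin chain Ltb by 0.80 (SE 0.09) and Stat4, which acts downstream of interleukin 12, by 0.68 (SE 0.17). Of 19 interferon response genes 3 were lower and none higher by this test, Iigp1 the most at -1.30 (SE 0.26), and of 9 MHC class I genes none passed either way.

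Liver and spleen members were next compared at each age. Of 2989 genes that reached 50 CPM and 30 UMIs in the higher library at 12 days, 11 (0.368%) were higher in liver members by 2-fold or more and 3 (0.100%) lower by as much. In the other Foxp3 cells 63 of the same genes (2.11%) differed by 2-fold or more, against 14 (0.468%) in members. Cxcr6 was 2.08-fold higher in liver members [1.82 to 2.39], at 207 against 99.5 CPM, whereas in the other cells it was 7.62-fold higher, at 63.7 against 8.35. The kinase gene Dapk3 was 4.52-fold [3.25 to 6.45] and the sorting nexin gene Snx20 3.95-fold [3.24 to 4.88] higher in liver members, with ratios of 5.12 and 4.99 in the other cells. Id3 was 4.20-fold lower in liver members, at 25.4 against 107 CPM, and also lower in the other liver cells, at 131 against 409. Lyz2 was lower too, but its 137 UMIs in spleen members lay in 5 cells. Among the 23 effector Treg genes measured, none passed 2-fold either way in members, and their median log2 ratio was 0.16 in members and 0.78 in the other cells. The lower count of 2-fold genes in members was particular to this comparison, and the genes were chosen by their level in members. Between tissues at 7 weeks 125 of 2234 genes differed in members and 52 in the other cells. By age, 295 of 2694 and 161 did so in liver, and 184 of 2735 and 105 in spleen.

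**Figure D5:**
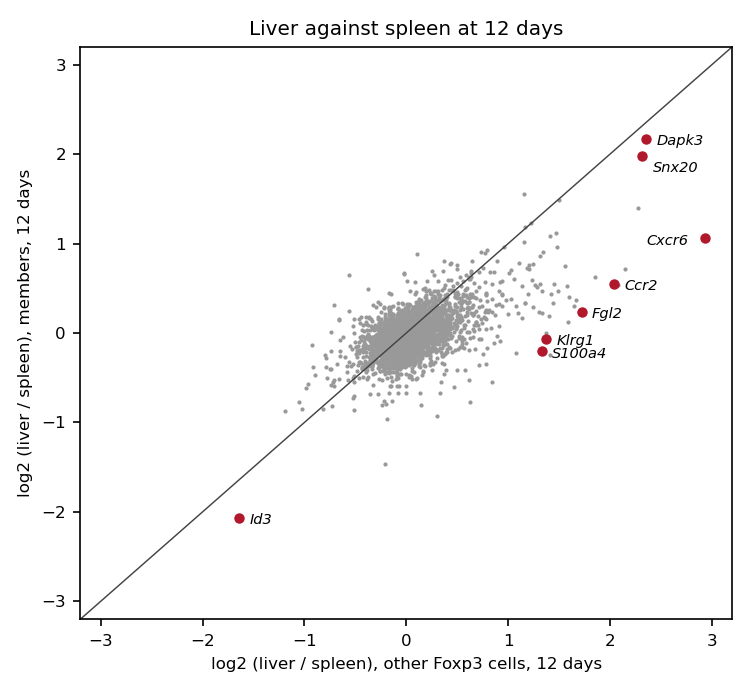
Log2 ratio of liver to spleen at 12 days in the other Foxp3 cells (x axis) and in members (y axis) for 2988 genes, with the line of equal ratios; 1 gene, Lyz2, lay beyond the axes. Dapk3, Snx20 and Id3 lay near the line, while Cxcr6, at 2.08-fold in members and 7.62-fold in the others, lay below it.

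The difference between members and the other cells was tested against tissue, with the ages as replicates. Of 10487 genes, 26 (0.248%) had a different member effect in liver and spleen by edgeR, 5 (0.0477%) larger and 21 (0.200%) smaller in liver. The gap was smaller in liver for Cxcr6 (-1.60, SE 0.24, edgeR adjusted p = 0.0042), Prdm1 (-1.69, SE 0.28), S100a4 (-1.43, SE 0.16) and Ccr2 (-1.23, SE 0.20). In each the other Foxp3 cells stood higher in liver than in spleen at both ages, for S100a4 at 774 and 597 CPM in liver against 307 and 181 in spleen. Members stood at 1322 and 976 against 1524 and 739. Without neonatal spleen none of these 4 passed, without neonatal liver S100a4 alone of the 4 did, and DESeq2 called 1 gene larger and 5 smaller, S100a4 among them. When the comparison used only cells with no UMI of the pair, 2 and 4 genes were called, and Cxcr6 was not among them (edgeR adjusted p = 0.14).

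At 7 weeks the comparison of tissues rests on 85 and 87 cells. Of 2234 genes measured, 82 (3.67%) were higher by 2-fold or more in liver members and 43 (1.92%) lower. Cxcr6 was 2.38-fold higher in liver [1.24 to 4.804] and Fgl2 2.29-fold [1.59 to 3.34]. Itgae, the integrin chain CD103, was 3.15-fold higher [1.76 to 5.92], with a ratio of 2.99 in the other cells, and the immediate early gene Fos 3.41-fold [2.49 to 4.74], with 2.87 in the others. Igtp, an interferon-induced GTPase, was 3.11-fold higher [2.40 to 4.07] against 1.58 in the others, and 7 of 20 interferon response genes passed 2-fold in members. Cxcl10, an interferon-induced chemokine, had 55 UMIs in liver members and 0 in spleen members, so it was at least 18.5-fold higher in liver, but 10 cells held all of its UMIs. Lag3 was 7.94-fold lower in liver members and the chemokine receptor Ccr8 3.77-fold lower, from 7 and 10 UMIs in liver against 56 and 38 in spleen.

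Age was compared within each tissue. In liver 130 of 2694 genes (4.83%) were higher by 2-fold or more in neonatal members and 165 (6.12%) lower. The balance turned with the setting: 224 were higher and 69 lower with members thinned to 2000 UMIs and shallower ones left out. With 10 or more UMIs of the pair, the counts were 262 and 88. A minimum of 30 UMIs is a higher level in the smaller 7-week sums than in the neonatal ones, so no balance is read from these counts. Nkg7 was 3.69-fold higher at 12 days [2.96 to 4.68], Klrg1 2.44-fold [2.06 to 2.92] and Cxcr6 2.42-fold [1.72 to 3.53]. The other liver Foxp3 cells had ratios of 5.59, 3.24 and 4.75 for these genes. The adhesion gene Epcam was 6.35-fold [3.63 to 12.3], Ccr8 6.13-fold [3.32 to 12.8] and Lag3 8.11-fold [3.92 to 20.2] higher at 12 days. Nrn1, which encodes neuritin, stood at 155 CPM against 2.59, from 1 UMI at 7 weeks, a ratio of 59.6 [10.7 to 2356].

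Many interferon and immediate early genes were lower in neonatal liver members. Of 20 interferon response genes measured, 15 were at least 2-fold lower and none higher, with a median log2 ratio of -1.52 in members and -1.18 in the other cells, against 0.11 and 0.16 over all genes. Iigp1 was 9.55-fold lower, at 30.7 against 293 CPM, and Oas1a 10.5-fold lower, at 8.13 against 85.6. At 7 weeks 10 of the 85 cells held 70.8% of the Iigp1 UMIs and 60.6% of those of Oas1a. Without the UMIs of the 10 highest cells of each library their log2 ratios were -1.95 and -2.66, in place of -3.26 and -3.40. Ifit1 was 7.92-fold lower, but its order turned in that setting, since 10 cells held 98.1% of the 7-week UMIs. The setting is uneven, as it takes 10 of 85 cells at 7 weeks and 10 of 1376 at 12 days. Of the genes followed for age in liver and rated in it, 15, Iigp1 and Oas1a among them, moved past their counting interval and kept their direction. A further 1, Ifit1, turned, and no rated gene stayed within its interval. Of 11 immediate early and stress genes 7 were lower, with Fos at 90.9 against 457 CPM and Jun at 44.9 against 195. Serpina3g was 5.83-fold lower, at 77.4 against 451 CPM.

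In spleen 99 of 2735 genes (3.62%) were higher by 2-fold or more in neonatal members and 85 (3.11%) lower. After thinning the counts were 189 and 28, and with a minimum of 100 CPM 33 and 56, so no balance is read here either. Klrg1 was 2.70-fold [2.26 to 3.25] and Cxcr6 2.76-fold [1.61 to 5.12] higher at 12 days. The relaxin family gene Rln3 stood at 1166 against 239 CPM, a ratio of 4.87 [3.96 to 6.05], with 4.40 in the other cells. Igf2bp3, a fetal RNA-binding protein, stood at 51.4 CPM against 2.57, from 1 UMI at 7 weeks, with a ratio of 12.5 in the other cells. Oas1a, Iigp1 and Serpina3g were 13.2-fold, 4.88-fold and 4.64-fold lower, but 3 of 17 interferon response genes passed 2-fold in spleen against the 15 of 20 in liver. Whether these 2 counts differ was not tested. In spleen the median log2 ratio of the interferon list was -0.71 in members and -0.95 in the other cells, against 0.12 and 0.15 over all genes. H2-Aa and H2-Eb1, MHC class II genes, were 41.9-fold and 53.4-fold lower in neonatal members, and 1 member cell of 7-week spleen held all 54 of its H2-Aa UMIs.

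Sex-linked transcripts also moved with age: Xist stood at 294 and 292 CPM in neonatal members of liver and spleen against 122 and 144 at 7 weeks, and Ddx3y at 8.25 and 8.29 against 23.4 and 20.6. Age, the 12-day genotype and the sex make-up of the libraries cannot be told apart. The test of the member effect against age called 1 gene (0.00954%) larger and 5 (0.0477%) smaller in neonatal libraries, together 0.0572% of 10487. For Ms4a4b, a membrane protein of T cells, members stood at 274 and 412 CPM in neonatal liver and spleen against 917 and 976 in the other cells, and at 1229.9 and 948 against 1234 and 989 at 7 weeks (-1.38, SE 0.17, edgeR adjusted p = 0.0041). The gap between members and the other cells was thus present at 12 days and near 0 at 7 weeks for this gene.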

How the data were processed

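The deposited matrices hold raw counts of UMIs for each gene in each barcode. Per the file headers they come from Cell Ranger 4.0.0. The mm10 build and Seurat 4.0.2 are named in the submitters' processing notes. The enriched V(D)J libraries were not analysed here. Gene positions came from GENCODE M21, to which 32158 of 32285 features matched, and promoters from RefSeq.

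Members were found by the rule in each of the 4 libraries. The members and gene lists were chosen with earlier results of these data known. No doublet caller was run. UMIs were summed per library and class, and the rule's 15 genes were left out of the tests. Sums of members and of the other Foxp3 cells were compared with edgeR 4.0.16 (R 4.3.3; TMM scaling, quasi-likelihood test, library as a block, Benjamini-Hochberg adjustment, threshold 0.05), and the member difference was tested by tissue and by age as interaction terms. DESeq2 1.42.0 was an alternative. The code was checked on simulated counts. Libraries were compared by the ratio of CPM with an exact conditional binomial interval (scipy 1.17.1), which covers counting error only. A gene counted as differing at 2-fold or more if the higher library reached 50 CPM and 30 UMIs, and where a library had 0 UMIs the ratio was taken against 3 UMIs.

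Named genes were the 12 highest and 12 lowest called log2 fold changes with 50 CPM or more and the same direction in each library, up to 4 genes per list with 25 CPM or more, Klrg1, Cxcr6 and Nkg7, the 8 highest and 8 lowest library ratios, and up to 10 interaction genes. Other genes named from the lists, Prf1, Fasl, Gzma, Gzmk, Zeb2, Bcl6 and Lag3 among them, were chosen after their values were seen. The libraries used as replicates differ in age and tissue, and nothing in the labels says how many animals each holds. Some genes that were tested are not reported here by name.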

Additional observations from a re-analysis of the deposited data

Results flagged for a closer look

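The genes below stood out because the member difference (members against the other Foxp3 cells, log2 scale) was itself different between tissues or between ages by edgeR's interaction test. All come from 4 libraries, 1 per tissue and age.

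By tissue, the difference was larger in liver than in spleen for Igfbp4, by 1.93, a gene that was lower in members of all 4 libraries, so its reduction was smaller in liver. It was smaller in liver for Ccr3 (-1.83), a chemokine receptor, for Crip2 (-1.73), for Prdm1 (-1.69) and for Cxcr6 (-1.60). The same held for S100a4 (-1.43), the long noncoding RNA Morrbid (-1.35), the leukotriene receptor Ltb4r1 (-1.32), the myosin Myo1f (-1.24) and Ccr2 (-1.23). Ccr3 stood at 38.96 and 83.0 CPM in liver members at 12 days and 7 weeks against 22.5 and 23.2 in the other cells, and at 33.99 and 38.6 in spleen members against 4.82 and 3.94. None of these 10 passed without neonatal spleen.

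By age, 3 MHC class II genes had a smaller difference in the neonatal libraries: H2-Eb1 (-4.13), H2-Aa (-3.96) and H2-Ab1 (-3.93). A single 7-week spleen member held all 54 of its H2-Aa UMIs. Nrn1 had a larger difference in the neonatal libraries (2.33), with 1 and 7 UMIs in the 7-week liver and spleen members. Ms4a4b had a smaller one (-1.38).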

How the results depend on the processing

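The order of libraries by share of members held at each limit tried. In neonatal liver, neonatal spleen and then the 7-week pair, shares were 32.2%, 6.02%, 2.63% and 1.22% at 10 or more UMIs and 46.8%, 12.8%, 8.74% and 3.64% at 3 or more. Cells below the depth are left out of thinned shares. Thinned to 2000 UMIs they were 30.8%, 5.26%, 4.07% and 1.30% at 5 or more and 43.6%, 10.5%, 8.996% and 3.35% at 2 or more. Thinned to 1000 UMIs the neonatal shares were 34.7% and 7.37%, without caps neonatal liver had 43.5%, and at 1 UMI per 1000 the 7-week shares were 7.53% and 2.92%. Members against the other cells gave 552 higher and 506 lower genes with matched depth, 204 and 307 without cells holding other-lineage UMIs (which removed most members, through Ighm), 813 and 758 when Ighm, Cd79b and Cd74 were not counted in that filter, and 434 lower with DESeq2. Leaving out 1 library gave 384 to 776 higher and 350 to 708 lower genes. Library was a block in these fits, and with no replicate block 81 and 75 genes were called. Of single genes, Mcm5 turned to -0.063 and -0.14 and Mcm3 to -0.22 and -0.055 with matched depth and without other-lineage UMIs, and Igf2bp3 to 0.090 with no replicate block. For Gzmb-led against Ccl5-led members, counts higher and lower were 230 and 202 at 10 or more UMIs, 251 and 203 at 90% and 10%, 222 and 147 split at 50%, 20 and 9 with DESeq2 (of 1069 genes), and 0 and 2 with no replicate block. Without the low count filter 157 were lower. At 10 or more UMIs Klf6 turned to -0.027 and Igf2bp3 to 0.022. Leaving out a library was not possible there, since no residual degree of freedom remained.

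By tissue, counts larger and smaller were 10 and 42 at 10 or more UMIs, 1 and 5 with DESeq2, 15 and 42 without the filter, and 2 and 4 against cells with 0 UMIs of the pair, an alternative chosen after seeing the data. With matched depth 2 were larger. Leaving out 1 library gave 1 to 29 and 3 to 95, and Ltb4r1 ranged from -1.41 to 0.13, the latter without neonatal spleen. By age, they were 17 and 30, 0 and 2, 22 and 36, and 11 and 11 under the same settings, with 1 smaller at matched depth. Leaving out 1 library gave 2 to 30 and 6 to 70, and H2-Aa ranged from -5.04 to 6.84, the latter without 7-week spleen. For liver against spleen members at 12 days, 260 and 36 genes differed with no minimum CPM, 17 and 14 after thinning, 203 and 7 without other-lineage UMIs (12 and 4 with those 3 genes not counted), and 1 and 5 were lower at 100 CPM and at 10 or more UMIs. At 7 weeks thinning gave 35 and 17. For age in liver, 926 were higher with no minimum CPM, 63 at 100 CPM, 262 higher and 88 lower at 10 or more UMIs, and 224 and 69 after thinning. For age in spleen, 467 were higher with no minimum CPM, 33 and 56 at 100 CPM, 170 and 48 at 10 or more UMIs, and 189 and 28 after thinning. Without the 10 highest cells of each library, a larger part of the 7-week members, Ifit1 (liver) turned to 1.92 and Cd83 (spleen) to 0.20. The other-lineage filter with all its markers was not run for ratios with 7-week members, of which 17 and 7 remained. With those 3 genes not counted 79 and 78 remained, and 74 and 34 genes differed between tissues at 7 weeks, 126 and 148 by age in liver and 110 and 71 by age in spleen. The cause of these changes was not tested. The 85 and 87 members at 7 weeks limit every value there.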

Other observations

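Immediate early and stress genes differed by age in both tissues. Of those measured, 7 of 11 were lower by 2-fold or more in neonatal than in 7-week liver members and 5 of 10 in spleen, where 6.12% and 3.11% of all genes measured were lower by as much. Their median log2 ratios were -1.24 and -1.04, against 0.11 and 0.12 over all genes. The other Foxp3 cells had medians of -1.16 and -1.04 for the same genes.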
